A study of Mus musculus with 6 samples.

Results

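The genes described here encode the C1q complement protein and a set of receptors, bridging molecules and secreted factors used by tissue macrophages to recognise and clear dying cells. They were C1qa, C1qb, C1qc, Axl, Mertk, Gas6, Cd5l, Timd4, Vcam1 and Apoe, 10 of the 28773 gene IDs in the files, and all 10 passed the minimum mean level that 12444 genes passed. They were chosen by name with their levels in these samples already known, so that their own differences between the groups are given as a description without a test. Bulk RNA-seq was performed on CD8+ T cells that had been purified from mouse spleen at day 35 of the experiment. The 3 MWA+PBS samples came from mice whose tumor had been treated by microwave ablation (MWA, destruction of the tumor by heat) and which then received the vehicle PBS. The 3 MWA+2DG samples came from mice with the same ablation followed by 2-deoxy-D-glucose (2DG), a glucose analogue that blocks glycolysis. Every sample therefore carried the ablation, and the comparison was of 2DG (MWA+2DG) with vehicle (MWA+PBS). The mice of the study were female, with ages given by strain in its methods. Which strain and tumor line these 6 samples came from, and whether a sample was a single mouse or a pool, was not found in the labels or methods, so that p-values measure only the spread between these samples, which may be technical.

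Levels are FPKM, the fragments of a gene divided by its length and by the sample's mapped fragments, which are per length, so that levels of different genes can be set side by side. The FPKM of a sample summed to between 291803 and 313257 over all genes, and between 22414 and 23340 genes were above 0, while the read depth behind these values is unknown. Mitochondrial genes held 21.4 to 22.8% of the FPKM with vehicle and 19.4 to 20.7% with 2DG. Cd8a, which defines the labelled cell type, averaged 231.5 ± 6.96 FPKM (SD, n = 3) with vehicle and 366.4 ± 9.47 with 2DG, and macrophage transcripts were also present in every sample.

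C1q is built from an A, a B and a C chain, each of which has a collagen-like stalk and a globular head, and it starts the classical complement pathway and coats dying cells. AXL and MERTK are receptor kinases of the TAM family, which also holds TYRO3. They bind phosphatidylserine on dying cells through bridging ligands, GAS6 for both and protein S for MERTK. TIM-4, the product of Timd4, binds phosphatidylserine directly, CD5L is a secreted protein of tissue macrophages, VCAM1 is an adhesion molecule, and apolipoprotein E exports cholesterol. In spleen, these genes are known as products of resident macrophages, including the red pulp macrophages that clear aged red cells, rather than of T cells.

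Promoter sequence from RefSeq (assembly GRCm38.p6, 250 bases before to 50 bases after each gene start) was found for 8 of the 10 genes, in 10 windows, and C1qa and Vcam1 were not searched. The stretches shown are of a pair of neighbouring C1q genes, which share their pattern, and of Timd4, which departs from it, and capitals mark a motif match. The C1qc stretch lies at chr4:136893066-136893164 on the minus strand, 250 to 152 bases before the start, the C1qb stretch at chr4:136886201-136886300 on the minus strand, 100 to 1 bases before the start, and the Timd4 stretch at chr11:46810699-46810798 on the plus strand, 100 to 1 bases before the start.
C1qc: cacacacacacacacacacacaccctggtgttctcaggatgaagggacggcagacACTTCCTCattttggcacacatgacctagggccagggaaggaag
C1qb: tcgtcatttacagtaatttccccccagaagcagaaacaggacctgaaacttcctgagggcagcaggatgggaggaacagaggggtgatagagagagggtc
Timd4: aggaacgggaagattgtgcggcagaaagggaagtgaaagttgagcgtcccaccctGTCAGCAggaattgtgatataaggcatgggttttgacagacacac

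Each motif was searched on both strands of the whole window. The PU.1 and SPIC core GAGGAAGT, bound by factors that macrophages need, was found, among the 8 genes searched, for C1qc, where it reads ACTTCCTC on the gene's strand, and 3.2% of 32851 promoters held it. The MAF recognition letters TGCTGAC were found among them for Timd4, where they read GTCAGCA, and 4.67% of promoters held them. The C/EBP site TTGCNNAA (10.8% of promoters), the E-box CACGTG (7.15%) and the core of the interferon response element (3.44%) were found in none of the 10 windows. No match overlapped another, and a match is a description of letters, not a binding site.

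Each of the 10 genes was lower in MWA+2DG than in MWA+PBS, and in no gene did the groups overlap. Since the genes were chosen on this contrast, nothing is read from that count; over all 12444 tested genes the groups did not overlap in the lower direction for 21.9% of genes, and 39.4% were called by limma at an adjusted p under 0.05, with 22.3% higher and 17.1% lower. The level in MWA+PBS was 3.02 to 7.29 times that in MWA+2DG, with a median of 6.56 times. In 7 of the 10 genes it was between 6.42 and 7.29 times, and Mertk, Apoe and Timd4 were below that range, at 5.57, 4.38 and 3.02 times. On the log2(FPKM + 1) scale used for all log2 fold changes here (MWA+2DG minus MWA+PBS), the median over the 10 genes was -2.61, beside 0.05 over all tested genes. The summed FPKM of the 10 genes was 735.2, 687.5 and 675.3 with vehicle and 124.0, 113.3 and 116.9 with 2DG. In bulk RNA, fewer cells of a type and less RNA per cell cannot be told apart.

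**Figure D1:**
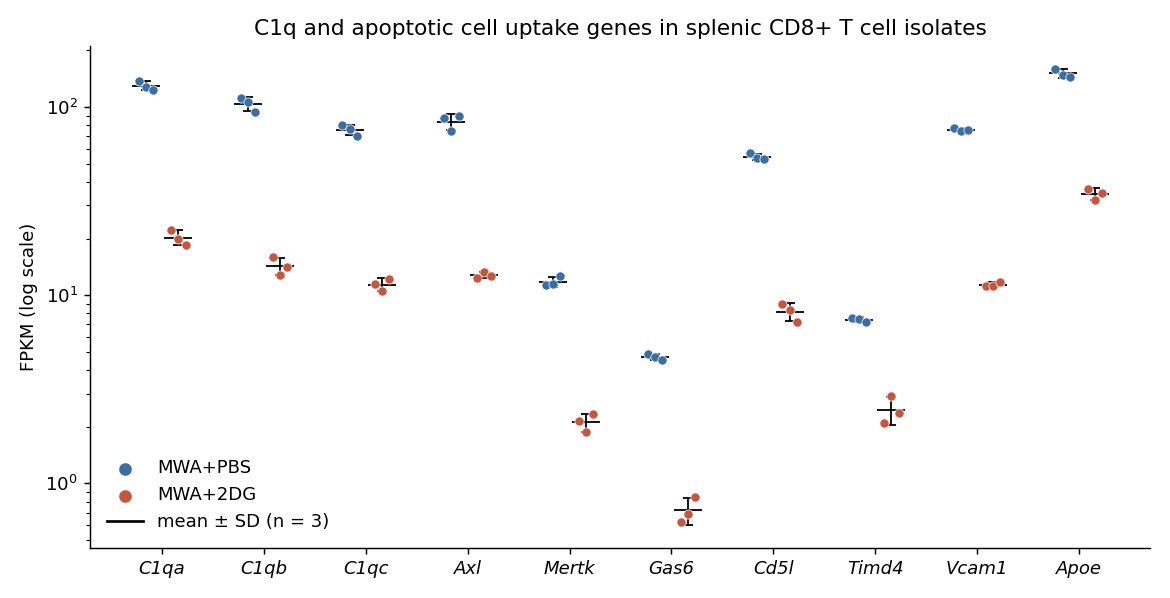
FPKM of the 10 genes on a log axis, with 1 point per sample (blue, MWA+PBS; red, MWA+2DG) and black bars for the mean and SD of 3 samples. In every gene the blue points lie above the red points, and the gap is narrowest for Timd4, at 3.02 times between the means, and widest for C1qb, at 7.29 times.

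The 3 chains of C1q held places 2, 3 and 5 in the order of levels of the 10 genes, and were lower to a like degree. C1qa (ENSMUSG00000036887) was at 138, 128 and 124 FPKM with vehicle and at 22.2, 20.0 and 18.6 FPKM with 2DG. C1qb (ENSMUSG00000036905) was at 112, 107 and 94.3 FPKM with vehicle and at 15.9, 12.8 and 14.2 FPKM with 2DG. C1qc (ENSMUSG00000036896) was at 80.3, 76.8 and 70.5 FPKM with vehicle and at 11.5, 10.5 and 12.3 FPKM with 2DG. In each chain every vehicle sample was far above every 2DG sample. The log2 fold changes were -2.63 ± 0.08 (SE) for C1qa, -2.78 ± 0.09 for C1qb and -2.63 ± 0.07 for C1qc. In both groups the order of the levels was C1qa, C1qb, C1qc, with no overlap between neighbouring chains in either group.

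Because the chains build a common protein, the share of each in their summed FPKM was also computed. C1qa held 42.0 ± 0.88% (SD, n = 3) in MWA+PBS and 44.1 ± 2.48% with 2DG, and C1qc held 24.5 ± 0.141% and 24.9 ± 2.13%, and for both chains the groups overlapped. C1qb held 33.8, 34.3 and 32.7% with vehicle and 32.1, 29.7 and 31.5% with 2DG. The C1qb share was thus slightly lower in each 2DG sample, by 2.52 percentage points between the means. The make-up of C1q transcripts by chain therefore differed little beside the drop of their sum, from 288.5 to 330.0 FPKM in MWA+PBS to 43.3 to 49.6 FPKM with 2DG.

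The C1q genes lie next to each other on chromosome 4 in the RefSeq order Ephb2, C1qb, C1qc, C1qa, Epha8, Zbtb40. The flanking ephrin receptor genes were close to 0 in both groups, with means of 0.0633 and 0.06 FPKM for Ephb2 and at most 0.01 FPKM in any sample for Epha8. Zbtb40, which encodes a zinc finger protein, averaged 3.66 FPKM with vehicle and 4.17 FPKM with 2DG, and its log2 fold change of 0.15 did not pass the limma test (adjusted p = 0.204). The C1q genes were thus lower in MWA+2DG, and the expressed neighbour was not in this fit. Scaling samples to the T lineage genes, which moves every log2 fold change by -0.41, would turn Zbtb40 negative.

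Among the TAM receptors, Axl and Mertk were lower in MWA+2DG while the related Tyro3 was not. Axl (ENSMUSG00000002602) was at 87.4, 74.6 and 89.3 FPKM with vehicle and at 12.4, 13.3 and 12.6 FPKM with 2DG. Mertk (ENSMUSG00000014361) was at 11.3, 11.4 and 12.7 FPKM with vehicle and at 2.15, 1.87 and 2.33 FPKM with 2DG. The log2 fold changes were -2.62 ± 0.08 (SE) for Axl and -2.04 ± 0.08 for Mertk. The plain ratios of the mean FPKM, without the pseudocount of 1 that shrinks log2 fold changes of low genes, were 6.57 and 5.57. Axl stood at 7.11 ± 0.60 (SD) times the level of Mertk in MWA+PBS and at 6.09 ± 0.885 times in MWA+2DG, and these ratios overlapped.

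Tyro3, which was not among the 10 genes, was at 1.04, 0.99 and 0.93 FPKM with vehicle and at 1.61, 1.55 and 1.47 FPKM with 2DG. Its log2 fold change of 0.36 ± 0.09 passed the limma test (adjusted p = 0.0159), but it turned to -0.050 when samples were scaled to the T lineage genes, and without MWA+PBS replicate 3 or MWA+2DG replicate 4 it missed the threshold (highest adjusted p = 0.0589). The ratio of Mertk to Tyro3 was 10.9 to 13.6 in the vehicle samples and 1.21 to 1.59 in the 2DG samples. Mertk was therefore the far more abundant of the pair in MWA+PBS and close to Tyro3 with 2DG.

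The bridging ligand Gas6 (ENSMUSG00000031451) was the least abundant of the 10 genes, at 4.88, 4.72 and 4.54 FPKM with vehicle and at 0.62, 0.69 and 0.85 FPKM with 2DG. Its log2 fold change of -1.73 ± 0.09 (SE) understated a ratio of 6.55 between the means, since the pseudocount of 1 exceeds its level in MWA+2DG. Pros1, which encodes protein S, a bridging ligand of MERTK, was at 1.88, 2.25 and 1.39 FPKM with vehicle and at 1.04, 0.74 and 1.18 FPKM with 2DG. Pros1 fell by 0.51 on the log2 scale (limma adjusted p = 0.0264), a call lost without MWA+PBS replicate 1, MWA+PBS replicate 2, MWA+2DG replicate 4 or MWA+2DG replicate 5 (highest adjusted p = 0.0773). The ratio of Gas6 to Pros1 averaged 2.65 ± 0.586 (SD, n = 3) in MWA+PBS and 0.75 ± 0.17 with 2DG. Gas6 was thus the more abundant ligand in each vehicle sample and the less abundant in each 2DG sample.

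Timd4 (ENSMUSG00000055546) showed the smallest difference of the 10 genes. It was at 7.61, 7.47 and 7.20 FPKM with vehicle and at 2.10, 2.91 and 2.36 FPKM with 2DG. The log2 fold change was -1.29 ± 0.09 (SE) with the pseudocount and -1.61 ± 0.14 on plain FPKM, and the ratio between the mean FPKM was 3.02. The 2DG samples of Timd4 also had the largest coefficient of variation among the 10 genes, 16.8%.

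Cd5l (ENSMUSG00000015854) was at 56.9, 53.7 and 52.7 FPKM with vehicle and at 8.98, 8.30 and 7.21 FPKM with 2DG, giving a log2 fold change of -2.60 ± 0.08 (SE). Vcam1 (ENSMUSG00000027962) was at 77.3, 74.8 and 75.1 FPKM with vehicle and at 11.2, 11.1 and 11.8 FPKM with 2DG, giving a log2 fold change of -2.63 ± 0.05. The samples of each group lay closest together for Vcam1, with coefficients of variation of 1.78% with vehicle and 3.31% with 2DG. The ratio between the group means, 6.67 for Cd5l and 6.65 for Vcam1, was within the range of the C1q chains, 6.42 to 7.29.

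VCAM1 is also known on activated endothelium and on stromal cells, so their markers were examined beside it. Of 12 endothelial markers, 11 were lower in MWA+2DG without overlap, and the exception was Pecam1, which leukocytes also express and which averaged 22.3 and 24.1 FPKM (limma adjusted p = 0.201), and fell by 0.30 when samples were scaled to the T lineage genes (adjusted p = 0.00203). The other 11 summed to 8.20 to 9.60 FPKM with vehicle and to 1.63 to 1.87 FPKM with 2DG. Only Pecam1 and Stab2 reached the minimum level, and the other 10 were not tested. Stab2, a scavenger receptor of sinusoidal endothelium, fell by 1.70, from 4.6 ± 0.315 to 0.723 ± 0.103 FPKM (adjusted p = 9.71e-06), and with no filter on low values 11 of the 12 were called lower. The defining markers Cdh5, Kdr and Emcn averaged 0.347, 0.113 and 0.05 FPKM in MWA+PBS, and Emcn was listed at 0 in each 2DG sample. The pericyte marker Pdgfrb averaged 1.36 ± 0.03 FPKM with vehicle and 0.43 ± 0.0693 FPKM with 2DG, and the follicular stroma chemokine Cxcl13 averaged 1.76 and 2.60 FPKM (limma adjusted p = 0.107). Of 16 stromal markers, 4 were lower without overlap, 2 were higher and 10 overlapped, and only 2 of the 16 reached the minimum level. Over all tested genes, 21.9% were lower without overlap, which is near the stromal share and below the endothelial share. Endothelial markers thus moved with Vcam1, at levels far below it, and their part in its lower level was not tested.

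VCAM1 binds the integrin of the ITGA4 and ITGB1 chains on lymphocytes. Itga4 averaged 56.1 ± 2.31 FPKM with vehicle and 55.3 ± 3.82 FPKM with 2DG (limma adjusted p = 0.826), and Itgb1 averaged 52.3 ± 2.27 and 57.3 ± 2.67 FPKM (adjusted p = 0.117). Of 11 tested genes on the list of VCAM1 partners and adhesion molecules, 5 rose, 1 fell and 5 did not pass, and the list's median log2 fold change was 0.19. T lineage scaling sets samples to the same level of T lineage genes and moves every log2 fold change by -0.41. Under it, 0 of the 11 rose and 7 fell, Itga4 and Itgb1 among them, with a median of -0.22. Over all 12444 tested genes, 8206 fell and 501 rose under this scaling, so such falls are shared with most genes. The integrin chain Itgal rose by 0.42, and Itgb7 and Itgb2 rose by 0.28 and 0.27, but under T lineage scaling Itgal lost its call (0.011) and Itgb7 and Itgb2 turned to -0.13 each. Icam1, an endothelial and myeloid adhesion molecule, fell by 0.26 (limma adjusted p = 0.00426). None of these partners moved to the extent of Vcam1.

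Apoe (ENSMUSG00000002985) was the most abundant of the 10 genes in both groups. It was at 160, 149 and 145 FPKM with vehicle and at 36.9, 31.9 and 34.7 FPKM with 2DG. Its log2 fold change of -2.10 ± 0.07 (SE), beside a ratio of 4.38 between the mean FPKM, was smaller in size than that of each C1q chain. The ratio of C1qa to Apoe was 0.865, 0.863 and 0.852 with vehicle and 0.602, 0.625 and 0.535 with 2DG, without overlap.

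Of 18 tested genes of lipid handling and the liver X receptors, the sterol sensors that control Apoe and Abca1, 9 fell, 1 rose and 8 did not pass, with a median log2 fold change of -0.26. Under T lineage scaling, 17 fell and 0 rose, beside 8206 and 501 of all 12444 tested genes. Lrp1, a receptor for APOE that also takes up dying cells, fell by 2.76 (from 25.1 ± 5.6 to 2.82 ± 0.425 FPKM), lipoprotein lipase (Lpl) fell by 1.86 (from 5.12 to 0.683 FPKM), and the liver X receptor Nr1h3 fell by 1.68 (from 6.69 to 1.42 FPKM), each with a limma adjusted p below the threshold in every alternative in which it was tested. Its ubiquitous relative Nr1h2 averaged 25.5 FPKM in both groups (adjusted p = 0.968), and was among those that fell under T lineage scaling (-0.40). The cholesterol exporter Abca1 fell by 0.36 (adjusted p = 0.00419), far less than Apoe. Mylip, a ligase that removes lipoprotein receptors, rose by 0.38 but turned to -0.024 under T lineage scaling. Apoc1, beside Apoe in the genome, averaged 0.763 and 0.34 FPKM and was under the minimum level.

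The order of levels in MWA+PBS was Apoe, C1qa, C1qb, Axl, C1qc, Vcam1, Cd5l, Mertk, Timd4 and Gas6. Axl and C1qc overlapped in their samples, as did C1qc and Vcam1, and no other neighbours in that order did. In MWA+2DG the order was the same but for Timd4, which stood above Mertk with overlapping samples. There C1qb overlapped with Axl, and C1qc with Vcam1. Within MWA+PBS, 8 of the 10 genes were highest in replicate 1, the exceptions being Axl and Mertk, which were highest in replicate 3. In MWA+2DG no replicate was highest for more than 4 genes.

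Other genes of dying cell recognition were described from a list of 27 receptors and ligands outside the 10 genes. Of 18 that reached the minimum level, 10 fell, 3 rose and 5 did not pass, with a median log2 fold change of -0.43. Under T lineage scaling 14 fell and 0 rose, beside 8206 and 501 of all 12444 tested genes. The largest drops were those of Lrp1 (-2.76), of Sirpa (-2.21), the macrophage receptor for the "don't eat me" signal CD47, and of the integrin chain Itgb5 (-2.16), whose integrin recognises dying cells through MFG-E8. Cd14, Cd300a, Stab2, Cd93, Scarb1, Pros1 and Calr were the other genes that fell. Sirpa, Msr1 and Cd14 also stand on the list of macrophage markers.

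The genes that rose on that list were Cd300lf (0.38), Tyro3 (0.36) and Cd47 (0.28), and T lineage scaling turned each below 0, to -0.030, -0.050 and -0.12. The call of Cd300lf, a receptor for phospholipids, was lost without MWA+PBS replicate 2 or 3 or MWA+2DG replicate 4 or 6 (highest adjusted p = 0.0846). The call of Cd47 was lost without MWA+PBS replicate 1 or 2 or MWA+2DG replicate 5 or 6 (highest adjusted p = 0.0697), and also under median ratio scaling. Mfge8, which encodes the bridging protein MFG-E8, averaged 4.39 ± 0.453 FPKM with vehicle and 4.36 ± 0.384 FPKM with 2DG (limma adjusted p = 0.951), and fell by 0.41 under T lineage scaling. The scavenger receptors Stab1 and Cd36 were below the minimum level, with means of 0.0867 and 0.897 FPKM in MWA+PBS. The tested genes of the list thus ranged from -2.76 to 0.38 in log2 fold change.

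**Figure D2:**
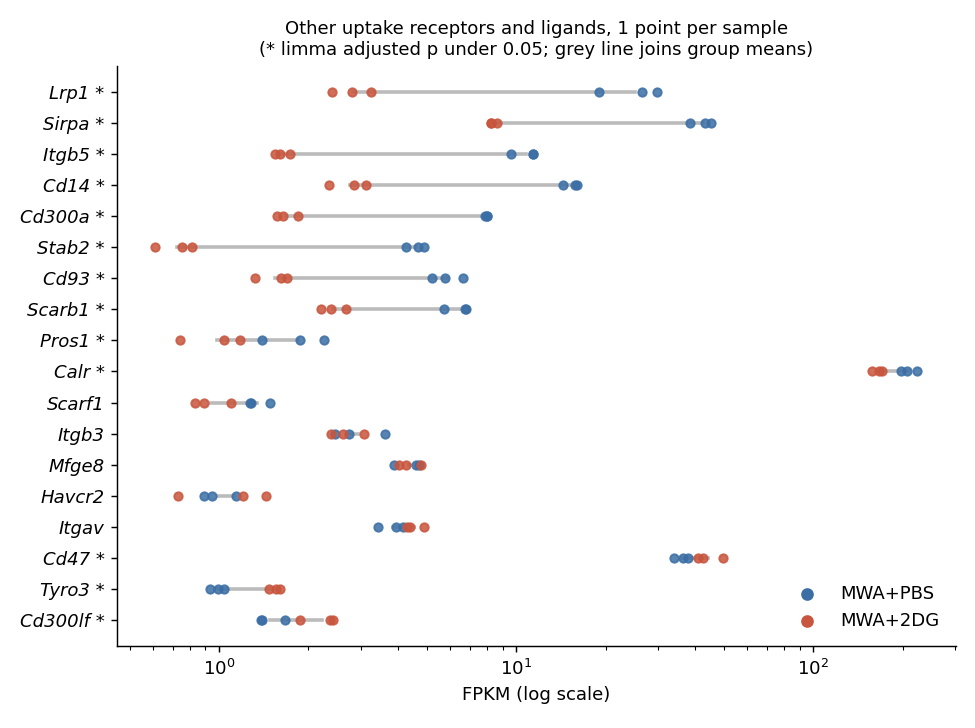
FPKM on a log axis of the 18 tested uptake receptors and ligands outside the 10 genes, with 1 point per sample (blue, MWA+PBS; red, MWA+2DG), grey lines joining the group means and stars on genes past the limma threshold. The genes are ordered by log2 fold change, from Lrp1 at the top, at -2.76, to Cd300lf at the bottom, at 0.38.

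Downstream of these receptors, 14 of 31 tested engulfment and corpse processing genes fell, 4 rose and 13 did not pass, with a median log2 fold change of -0.10. Under T lineage scaling, 27 fell and 1 rose, beside 8206 and 501 of all 12444 tested genes. The nuclear receptors Pparg, Nr1h3 and Rxra, which control lipid handling in macrophages, fell by 1.73, 1.68 and 1.24. Anxa1, which encodes a phospholipid-binding protein abundant in neutrophils, rose by 2.04, from 9.77 ± 1.33 to 43.2 ± 2.45 FPKM. Mcoln1, a lysosomal channel, and Rac2, a haematopoietic GTPase, rose by 0.29 and 0.28, but turned to -0.11 and -0.12 under T lineage scaling, and the call of Mcoln1 was lost without MWA+2DG replicate 4 (adjusted p = 0.052).

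In the complement system, of which C1q is the first component of the classical pathway, 31 of 34 listed genes were in the files. Of 18 that were tested, 8 fell, 5 rose and 5 did not pass, with a median log2 fold change of -0.17. Under T lineage scaling 11 fell and 5 rose, beside 8206 and 501 of all 12444 tested genes. The ficolin gene Fcna, whose product starts the lectin pathway, fell by 2.50, from 96.4 ± 3.29 to 16.3 ± 0.653 FPKM. C6, a component of the terminal pore, fell by 2.41, and properdin (Cfp), which stabilises the alternative pathway convertase, fell by 1.74. The proteases that partner C1q were scarce, with C1ra at 1.33 and 0.54 FPKM and C1s1 at 0.653 and 0.627 FPKM with vehicle and 2DG, both below the minimum level. C3 fell by 0.18 (limma adjusted p = 0.038), a call lost when any replicate other than MWA+PBS replicate 2 was left out (highest adjusted p = 0.129), and C4b averaged 1.29 and 1.48 FPKM (adjusted p = 0.442), with its near-identical copy C4a counted apart.

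Receptors for complement fragments moved in both directions. Itgax, a chain of complement receptor 4 and a dendritic cell marker, fell from 4.49 to 1.75 FPKM. Cr2, the complement receptor of B cells, rose by 2.02, from 0.197 to 3.87 FPKM, C5ar1, a receptor of neutrophils and monocytes, rose by 1.36, from 0.367 to 2.50 FPKM, and Itgam, a chain of complement receptor 3, rose by 1.23, from 4.81 to 12.6 FPKM. Cr2 also stands on the list of B cell markers, of which 8 of 8 others tested rose, and the 9 others in the files summed to 10.7 to 12.0 FPKM with vehicle and to 59.7 to 64.9 FPKM with 2DG. Of 13 neutrophil markers, 10 rose, Mpo and Elane, the primary granule genes of progenitors, fell by 2.72 and 2.05, and Csf3r did not pass. Mpo and Elane together were at 245.8 to 291.9 FPKM with vehicle and at 43.6 to 44.9 FPKM with 2DG, while the other 11 markers summed to 66.7 to 91.0 and to 1577 to 1757 FPKM. Their part in the rise of these receptors was not tested.

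**Figure D3:**
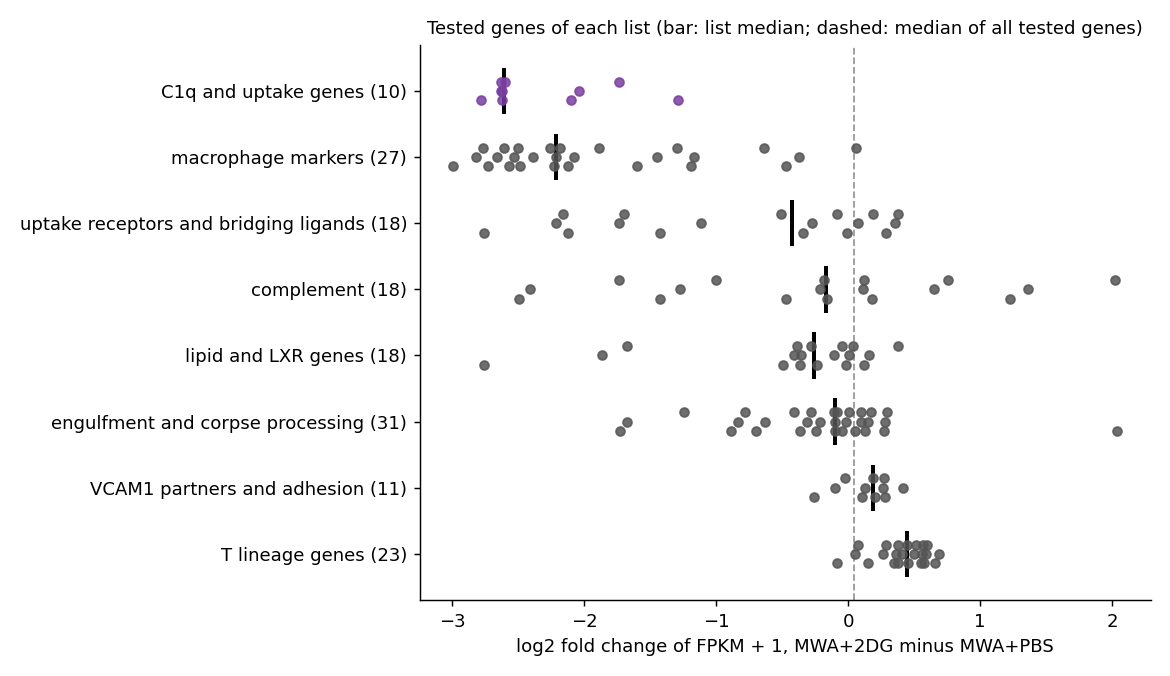
Log2 fold change (MWA+2DG minus MWA+PBS, log2 of FPKM + 1) of every tested gene of the 10 C1q and uptake genes and of the other lists, 1 point per gene, with the list's median as a black bar and the median of all tested genes, 0.05, as a dashed line. The C1q and uptake genes (median -2.61) and the macrophage markers (median -2.21) lie furthest to the left, while the other pathway lists spread on both sides of the line without T lineage scaling.

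Macrophage markers moved with the 10 genes. Of 30 markers that share no gene with them, 27 were tested, 26 fell and none rose, the exception being Cx3cr1 (0.06, adjusted p = 0.598), and the median log2 fold change was -2.21. The summed FPKM of the 30 markers ranged from 885.8 to 954.8 with vehicle and from 143.0 to 153.0 with 2DG, and no marker was at 0 in any sample. Among the defining markers, Adgre1 (F4/80) was at 31.3, 31.7 and 31.1 FPKM with vehicle and at 4.37, 4.64 and 4.80 FPKM with 2DG, and the growth factor receptor Csf1r at 72.8, 61.4 and 69.4 and at 10.5, 10.7 and 10.5 FPKM. The lysosomal protein Cd68 averaged 73.5 and 12.2 FPKM, and Spic, the factor of red pulp macrophages, 13.4 and 2.92 FPKM. Hmox1, which degrades heme, fell by 2.99, the furthest on the list, followed by Itgad and Lgmn, which fell by 2.82 and 2.77. Siglec1 and Marco, which mark macrophages of the marginal zone, fell by 1.19 and 1.17. The part of the macrophage markers in the lower level of the 10 genes was not tested.

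Set against those markers, the groups overlapped for 7 of the 10 genes, and Timd4, Apoe and Vcam1 were the exceptions. Per 100 FPKM of the 30 macrophage markers, C1qa was at 14.1 ± 0.657 (SD, n = 3) in MWA+PBS and at 13.7 ± 1.42 with 2DG. The groups likewise overlapped for C1qb, C1qc, Axl, Mertk, Gas6 and Cd5l. Apoe was higher against the markers in each 2DG sample, at 23.3 ± 1.36 beside 16.4 ± 0.63 in MWA+PBS. Timd4 was at 1.66 ± 0.329 beside 0.806 ± 0.0341, and Vcam1 was slightly lower, at 7.69 ± 0.127 beside 8.22 ± 0.202.

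Nearly every gene was higher against the macrophage markers, however. On the same ratio the groups did not overlap for 98.1% of all tested genes in the higher direction and for 0.281% in the lower direction, so that the higher ratios of Timd4 and Apoe are shared with most genes. The result also depends on the measure: the log2 fold change of Apoe differed by -0.17 from the mean of the 27 tested macrophage markers, -1.93, while Gas6 and Timd4 stood above that mean, by 0.20 and 0.64, and the other 7 genes stood below it. With a pseudocount of 0.1 in place of 1, Gas6 turned to -0.40 and Apoe to 0.033.

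The choice of denominator also changed which genes overlapped. With Adgre1 alone, Timd4 and Apoe were higher without overlap and none of the 10 genes was lower, beside 98.3% and 0.129% of all tested genes. With Csf1r alone the counts were the same, beside 98.1% and 0.217%. Timd4 was at 23.7 ± 0.583 per 100 FPKM of Adgre1 with vehicle and at 53.3 ± 8.16 with 2DG, and Apoe at 482 ± 24.5 and 752 ± 82.3. Without Hmox1, the most abundant of the macrophage markers, C1qb, C1qc, Cd5l and Vcam1 were lower without overlap and Timd4 and Apoe higher, beside 0.41% and 97.8% of all tested genes. These ratios rest on the contrast by which the genes were chosen, so nothing more is read from the counts.

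**Figure D4:**
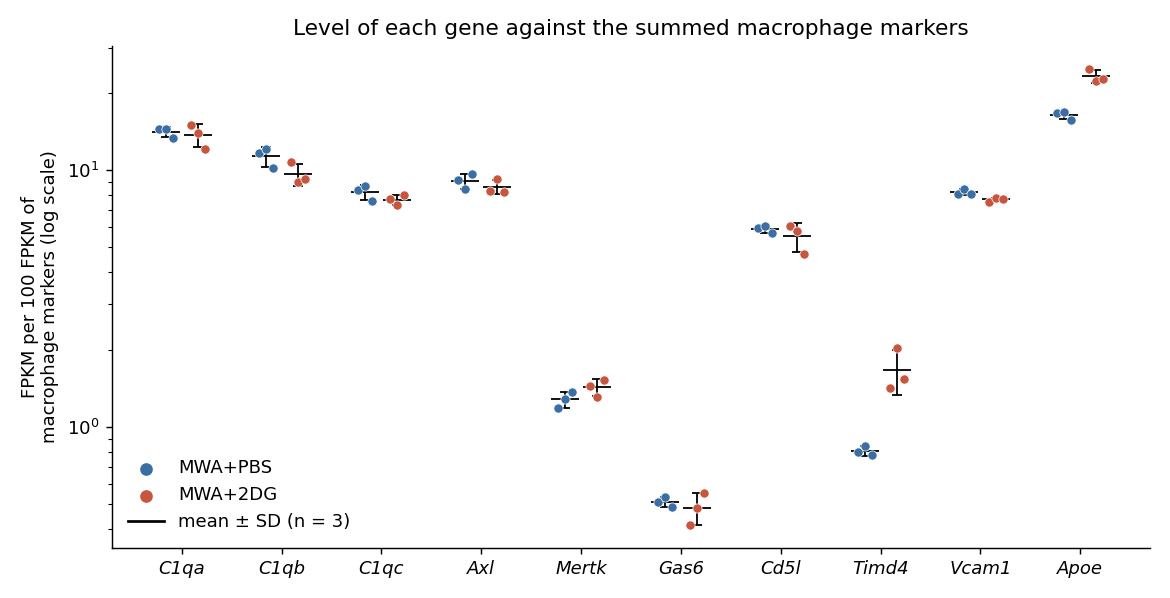
FPKM of each of the 10 genes per 100 FPKM of the 30 summed macrophage markers, on a log axis, with 1 point per sample (blue, MWA+PBS; red, MWA+2DG) and black bars for the mean and SD of 3 samples. Points of both groups overlap for 7 genes, the red points lie above the blue for Timd4 (1.66 beside 0.806) and Apoe (23.3 beside 16.4), and slightly below for Vcam1.

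The pattern of C1q over the 6 samples was also compared with that of every other tested gene, by the root mean square (RMS) difference between log2(FPKM + 1) profiles centred on their means. The 10 nearest genes outside the set were Fos, Lgmn, Mrc1, Trf, Fcna, Itgad, Csf1r, Adgre1, Mpo and Igkv8-21, with RMS differences from 0.0398 for Fos to 0.141 for Igkv8-21. Of these, 6 stand on the list of macrophage markers. Fos, an immediate early transcription factor that many cell types express, was at 108, 104 and 96.5 FPKM with vehicle and at 16.3, 15.1 and 16.1 FPKM with 2DG. Mpo, the myeloperoxidase of myeloid progenitors, averaged 226.1 and 33.4 FPKM, and Igkv8-21, an antibody light chain segment whose reads may be shared with near-identical segments, 18.7 and 2.46 FPKM. Among the 10 genes themselves, Vcam1, Cd5l and Axl ranked 7, 8 and 15 by likeness to C1q among all tested genes, and Apoe, Mertk, Gas6 and Timd4 ranked 55, 66, 131 and 302. With 6 samples in 2 groups, this measure mainly follows the size of the difference between the groups.

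Other cell types that a splenic isolate can hold did not share a common direction. The summed erythroid markers ranged from 310.1 to 366.1 FPKM with vehicle and from 81.1 to 97.4 FPKM with 2DG, and 10 of 10 tested fell. Of 10 tested monocyte markers, 5 fell (Treml4, F13a1, Fn1, Nr4a1 and Ms4a6c) and 4 rose (Chil3, Itgam, Lyz2 and Ly6c2). Lyz2 and Ly6c2 lost their calls under T lineage scaling, at 0.0036 and 0.0025. Of 4 tested dendritic cell markers, 3 fell and none rose. Of 23 T lineage genes, 18 rose and none fell, with a median log2 fold change of 0.44 and a sum of 2342 to 2482 FPKM with vehicle and 3267 to 3515 FPKM with 2DG. The part of these shifts in the levels of the 10 genes was not tested. Scaling the samples to the T lineage genes shifted every gene by -0.41, so that the median over the 10 genes became -3.02 and that of all tested genes -0.36, and differences between genes stayed as they were.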

How the data were processed

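Bulk RNA-seq of 6 samples was analysed, 3 MWA+PBS and 3 MWA+2DG, grouped by the titles in the labels. The authors deposited FPKM values per gene, with 2 decimals, for each sample. Per the submitters' processing notes, these came from cutadapt 1.9, HISAT2 2.0.4, UMI-tools, StringTie 1.3.4d and build mm9; the annotation was not given in the sources used here. Read depth is unknown, so that no counting interval is given. FPKM are relative to all transcripts of a sample, so a shift in abundant transcripts moves the others.

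Of 28773 gene IDs, 28689 had a symbol, and 12444 had a mean FPKM of at least 1 and were tested. limma 3.58.1 (R 4.3.3; lmFit, eBayes with a trend, two-sided) was fitted on log2(FPKM + 1), and p-values were adjusted over all tested genes by Benjamini-Hochberg, with a threshold of 0.05. The script was tested on simulated data. The members and lists were chosen with earlier results of these data known. Genes were named by rule: the members, a written set of pathway and marker genes, up to 3 called genes of largest change per direction and list, and the 10 nearest to C1q. Neighbouring genes of C1q and genes listed by name without values were added after their values were seen. Alternatives were a pseudocount of 0.1, no filter, a mean FPKM of at least 5, median ratio scaling, scaling to T lineage genes, eBayes without a trend, the study's rule (P under 0.05 and an absolute log2 fold change above 0.25) and leaving out each sample.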

Additional observations from a re-analysis of the deposited data

How the results depend on the processing

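Over 9 alternatives, all 90 refitted log2 fold changes of the 10 genes were negative. The genes were chosen on this contrast and their groups did not overlap, so nothing is read from that count. Their median of -2.61 became -2.69 with a pseudocount of 0.1, -2.66 with median ratio scaling and -3.02 with T lineage scaling. It lay between -2.62 and -2.55 when a sample was left out. Relative to the mean of the macrophage markers, the median of -0.68 became -0.53 with a pseudocount of 0.1 and -0.72 without Hmox1 (chosen after seeing the data), and lay between -0.68 and -0.60 when a sample was left out; with a pseudocount of 0.1, Apoe turned to 0.033 and Gas6 to -0.40. The smaller pseudocount counts low levels more fully, and Gas6 is near 1 FPKM in MWA+2DG.

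The 4907 called genes (2773 higher, 2134 lower) became 2951 at a mean FPKM of at least 5, where fewer genes were tested, and 8707 (501 higher, 8206 lower) under T lineage scaling, which lowers every gene by construction; median ratio scaling gave 2323 higher and 2465 lower, and leaving out a sample 3669 to 5152. At a mean FPKM of at least 5, uptake genes that fell numbered 5 and complement genes 4; under T lineage scaling, engulfment genes that fell numbered 27. T lineage scaling turned Cd300lf to -0.030, Cd3e to -0.028, Cd47 to -0.12, Itgb2 to -0.13, Itgb7 to -0.13, Mcoln1 to -0.11, Mylip to -0.024, Rac2 to -0.12 and Tyro3 to -0.050. Calls were also lost with no filter on low values for Cd300lf, Cd3e, Cd47 and Pros1, with median ratio scaling for Cd47 and without a trend for C3. Of 49 called genes named from the lists, 37 kept their call and direction in every refit that tested them. No paired analysis was possible because the groups share no replicate number. The depth behind FPKM is unknown, so that precision rests on 3 samples a group.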
